A study of Mus musculus with 40 samples.

Results

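Cyclic nucleotide phosphodiesterases (PDEs) are the enzymes that break down the second messengers cAMP and cGMP. The 10 PDE genes described here are Pde1c, Pde3a, Pde3b, Pde4b, Pde4d, Pde7a, Pde7b, Pde8a, Pde8b and Pde10a, followed across primary visual cortex (V1) astrocyte nuclei of mice that were reared with or without light and that had or lacked the glucocorticoid receptor (GR) in astrocytes. They were selected on their gene symbols with results of these same libraries known, the normal-rearing against dark-rearing values at postnatal day 21 (P21) foremost, so those values are given as a description without a test. All 10 were among the 25239 genes of the count table, and all 10 passed the filter on low counts that left 17106 genes. The table held 14 other PDE genes, which serve as the nearest comparison.

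The nuclear RNA of V1 astrocytes was sequenced in 40 libraries, 12 groups of 3 or 4, each library a pool of tissue from a male and a female. All mice carried floxed GR alleles (GR fl/fl). GR-KO mice received AAV2/5-GfaABC1D-Cre, in which the astrocyte promoter GfaABC1D drives Cre, and GR-Con mice received the same vector with the inactive ΔCre, both injected within a day of birth. Each genotype was studied in normal rearing (NR, a light-dark cycle) and in dark rearing (DR, chronic darkness), at P14, P21 and P28. Groups held 3 libraries, except the 4 DR groups at P21 and P28, which held 4. Since every control carried the floxed alleles and a vector, the loss of GR and the presence of active Cre cannot be told apart.

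Library totals ran from 17240294 to 49221787 counts, and the smallest count behind any value of the 10 genes was 261. The 10 astrocyte markers summed to 11610 to 18370 CPM per library (counts scaled to equal effective library size), against 1869 to 3895 CPM for 12 neuron markers, 221 to 1385 CPM for 8 oligodendrocyte markers and 27.4 to 51.16 CPM for 7 microglia markers, of which P2ry12 was at 0 in every library. Gpr17, a marker of oligodendrocyte precursors, was also at 0, while the microglia markers Cx3cr1 and Csf1r had means of 10.8 and 18.4 CPM. Neither 0 is read as absence of the RNA. Earlier work on these libraries set replicate 3 of P14 NR GR-KO, replicate 1 of P21 NR GR-Con and replicate 2 of P21 DR GR-Con apart from their groups over all genes, and values without them are given where a result rests on them. Nr3c1, the gene of GR, was not lower in GR-KO. It spanned 204 to 309 CPM in GR-KO and 209 to 275 CPM in GR-Con libraries, and at P21 it was higher in GR-KO without overlap, at 249 to 287 CPM against 216 to 229 CPM in NR and 270 to 284 CPM against 209 to 240 CPM in DR. Counts were taken over the whole gene body and the sources at hand do not say which part is deleted, so these values do not check the deletion. The GR target Hif3a separated the genotypes without overlap, at 16.1 to 33.3 CPM in GR-KO and 71.7 to 241 CPM in GR-Con. In bulk libraries, fewer cells of a type and less RNA per cell cannot be told apart. No label gives the animals behind the replicate numbers beyond the pooling, so p values measure the spread between these pools.

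PDEs set how long and how far a cyclic nucleotide signal reaches inside a cell, because cAMP is made by adenylyl cyclases at one place and cut by PDEs at another. The families differ in substrate. PDE4, PDE7 and PDE8 cut cAMP. PDE1, PDE3 and PDE10 cut both cAMP and cGMP, with PDE1 switched on by calcium and calmodulin and PDE3 slowed by cGMP. In astrocytes, cAMP rises downstream of noradrenaline, adenosine and neuropeptide receptors and is tied to glycogen breakdown and gene expression through protein kinase A (PKA) and the transcription factor CREB.

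Start-site sequences are shown first for the genes on which the comparisons below turn: Pde10a and Pde7b, which share the rearing pattern at P21 that bore on their choice, and Pde4b and Pde1c, which were called higher in GR-KO at P21 over both rearings. RefSeq promoters (build GRCm38.p6, from 250 bases before to 50 bases after a start site) were at hand for 7 of the 10 genes, 17 promoters in all; Pde3a, Pde3b and Pde7a had none in the table used. Capitals mark the short cAMP response element (short CRE, TGACG or CGTCA) and the short glucocorticoid response element (short GRE, AGAACA or TGTTCT). Both were searched on both strands, as were the full CRE TGACGTCA, which contains the short CRE, and the AP-1 site TGANTCA. The windows lie at chr17:8801495-8801794 (+) and chr17:8849735-8850034 (+) for Pde10a, chr10:20548279-20548578 (-) for Pde7b, chr4:102421305-102421604 (+) for Pde4b and chr6:56362343-56362642 (-) for Pde1c. For Pde4b, 1 of its 4 windows is shown, and for Pde1c 1 of its 3.
Pde10a, first start site: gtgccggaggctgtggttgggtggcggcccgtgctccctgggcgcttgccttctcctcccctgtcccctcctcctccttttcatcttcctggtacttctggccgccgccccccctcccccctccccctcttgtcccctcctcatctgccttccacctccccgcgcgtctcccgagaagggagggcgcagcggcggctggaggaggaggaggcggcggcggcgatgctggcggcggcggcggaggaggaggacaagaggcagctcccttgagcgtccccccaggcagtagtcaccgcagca
Pde10a, second start site: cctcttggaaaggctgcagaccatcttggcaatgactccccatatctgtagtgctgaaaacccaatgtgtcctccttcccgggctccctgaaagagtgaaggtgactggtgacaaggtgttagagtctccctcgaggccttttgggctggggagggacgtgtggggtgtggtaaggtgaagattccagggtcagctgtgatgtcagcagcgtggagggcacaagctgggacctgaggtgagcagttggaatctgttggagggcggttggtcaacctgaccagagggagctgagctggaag
Pde7b: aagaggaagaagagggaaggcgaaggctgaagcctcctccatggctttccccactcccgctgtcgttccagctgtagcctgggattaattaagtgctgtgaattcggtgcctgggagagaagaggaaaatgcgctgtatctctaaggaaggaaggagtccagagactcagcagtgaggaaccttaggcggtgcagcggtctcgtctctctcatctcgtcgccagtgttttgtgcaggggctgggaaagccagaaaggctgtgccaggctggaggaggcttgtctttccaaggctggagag
Pde4b: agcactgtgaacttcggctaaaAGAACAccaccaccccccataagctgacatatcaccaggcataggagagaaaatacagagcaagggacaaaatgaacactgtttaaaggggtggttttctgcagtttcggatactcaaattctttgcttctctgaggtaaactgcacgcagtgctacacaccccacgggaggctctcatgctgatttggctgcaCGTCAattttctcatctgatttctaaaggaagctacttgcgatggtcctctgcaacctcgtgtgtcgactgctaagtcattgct
Pde1c: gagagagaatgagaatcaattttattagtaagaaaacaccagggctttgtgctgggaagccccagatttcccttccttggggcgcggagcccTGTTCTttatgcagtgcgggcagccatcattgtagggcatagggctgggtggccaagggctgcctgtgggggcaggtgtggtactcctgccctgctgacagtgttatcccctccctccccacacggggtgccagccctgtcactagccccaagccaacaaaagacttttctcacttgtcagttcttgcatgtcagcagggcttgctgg

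Neither Pde10a window nor the Pde7b window held any of the 4 motifs. The Pde4b window shown held a short GRE starting at position -228 and a short CRE at -34, counted from the start site as 0, and the Pde1c window shown held a short GRE at -158. Of the other Pde4b windows, 1 held a short GRE alone and 2 held none of the motifs, and of the other Pde1c windows, 1 held a short GRE and 1 only an AP-1 site. Over the 17 promoters, 3 held the short CRE, 4 the short GRE, 1 the AP-1 site and 0 the full CRE. Over all 32851 promoters of the table, 20.8% held the short CRE, 19% the short GRE, 7.81% the AP-1 site and 1.79% the full CRE. The first Pde10a window was 71.3% G and C, the second 56.7% and the Pde7b window 55.7%, against a median of 52.7% over all promoters. A match of letters is a description of the sequence and not a binding site.

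The 10 genes differed widely in level. Scaled by gene length, because counts included introns, Pde8b, a cAMP-specific enzyme with high affinity for its substrate, stood highest of the 10 at 1.94 ± 0.529 CPM per kb (SD over 40 libraries). Pde7b, also cAMP-specific, followed at 0.936 ± 0.323 CPM per kb and was below Pde8b in 40 of 40 libraries. Pde7a (0.695 ± 0.0555), Pde10a (0.568 ± 0.468) and Pde4b (0.566 ± 0.123 CPM per kb) formed a middle tier whose order was not fixed: Pde10a was above Pde4b in 14 of 40 libraries. Pde4d had 0.279 ± 0.0566, Pde3a 0.193 ± 0.0931, Pde8a 0.177 ± 0.0407, Pde3b 0.158 ± 0.0303 and Pde1c 0.0499 ± 0.0129 CPM per kb. Pde3a exceeded Pde8a in 18 of 40 libraries and Pde8a exceeded Pde3b in 27, so those neighbours were not separated, while Pde3b exceeded Pde1c in 40 of 40. Of the other PDE genes, Pde9a, a cGMP enzyme (1.28 ± 0.324), Pde2a (1.14 ± 0.158) and Pde1b (1.06 ± 0.0902 CPM per kb) lay between Pde8b and Pde7b.

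**Figure D1:**
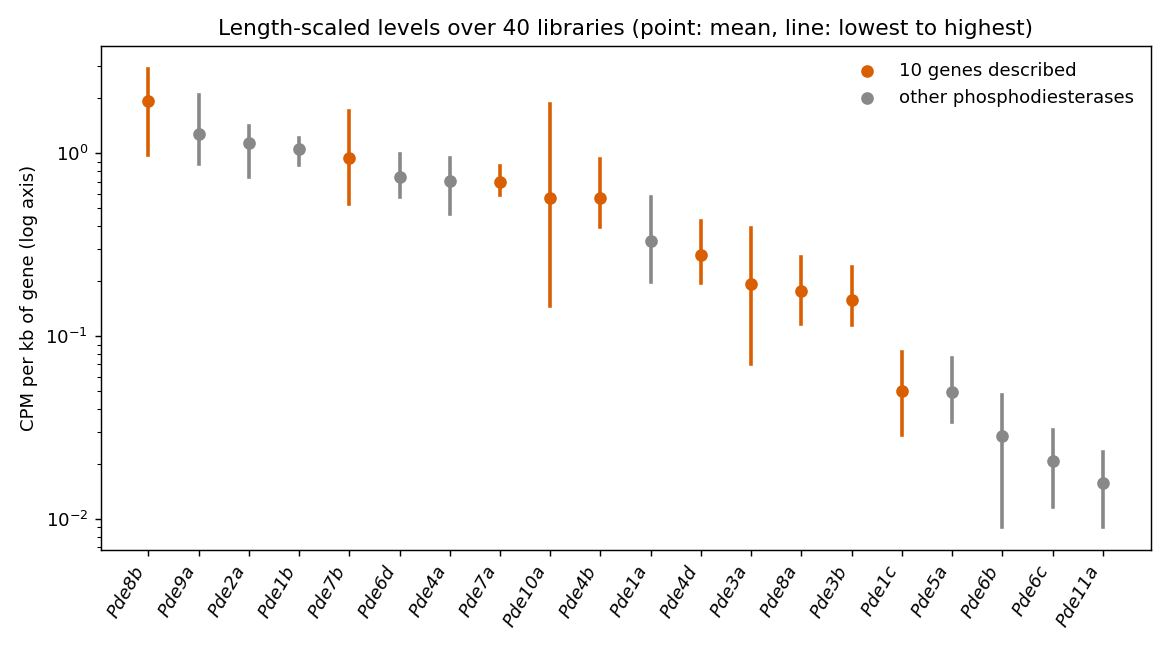
Each point is the mean over 40 libraries of a PDE gene's CPM per kb of gene on a log axis, and each line runs from the lowest to the highest library, with the 10 genes described in orange and other PDE genes of at least 1 CPM in grey. Pde8b is highest at 1.94 CPM per kb, and Pde10a has the widest span on this axis, 0.147 to 1.86 CPM per kb.

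Pde10a also varied most between groups. Its group means spanned 2.99 on the log2 scale, against a spread within groups of 0.58 (SD, log2). Pde3a spanned 2.2 with a within-group SD of 0.27, Pde7b 1.33 with 0.3 and Pde8b 1.15 with 0.22. Pde7a was the steadiest, with a span of 0.21 and a within-group SD of 0.11. The genes are long, from 88.2 kb for Pde7a to 1300 kb for Pde4d, and 9 of the 10 exceed 100 kb. Pde10a lies at chr17:8525187-8986648 (461 kb), Pde7b at chr10:20397052-20725078 (328 kb), Pde3a at chr6:141249269-141506862 (258 kb) and Pde8b at chr13:95024105-95250401 (226 kb). Other annotated genes cover 18.7% of Pde8b, 8.99% of Pde10a and 7.75% of Pde4b, and with a strand setting of the counting not given in the sources used here, reads of those genes may enter these counts.

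At P21, Pde10a, Pde3a and Pde7b were higher in normally reared than in dark-reared astrocytes in both genotypes, with no overlap between libraries. Pde10a, a cAMP and cGMP enzyme best known from striatal neurons, had 453, 366 and 429 CPM in NR GR-KO libraries, against 144, 126, 99.7 and 87.4 CPM in DR GR-KO libraries. In GR-Con it had 249, 531 and 629 CPM in NR, against 89.6, 156, 67.9 and 141 CPM in DR. The fitted NR-over-DR differences were 1.86 ± 0.391 in GR-KO (3.64-fold) and 2.05 ± 0.393 in GR-Con (4.14-fold; log2 fold change ± SE throughout). Every NR library thus lay above every DR library, and the lowest NR value, 249 CPM, belonged to a GR-Con library.

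Pde7b, the cAMP-specific neighbour in this pattern, had 501, 395 and 447 CPM in NR GR-KO libraries, against 280, 223, 197 and 234 CPM in DR GR-KO. In GR-Con it had 356, 385 and 514 CPM in NR, against 172, 260, 174 and 248 CPM in DR. The difference was 0.94 ± 0.207 in GR-KO (1.92-fold) and 0.97 ± 0.208 in GR-Con (1.96-fold). Pde3a, the cGMP-inhibited enzyme, had 77.7, 63.8 and 75.9 CPM in NR GR-KO, against 29.3, 34.5, 27.8 and 27.8 CPM in DR GR-KO. In GR-Con it had 32, 38.4 and 43.5 CPM in NR, against 18.2, 21.3, 18.2 and 20.8 CPM in DR. Its difference was 1.28 ± 0.192 in GR-KO and 0.96 ± 0.197 in GR-Con, and its NR GR-KO libraries stood above every other library of that age.

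Pde8b and Pde4d differed without overlap in GR-Con but not in GR-KO. Pde8b had 623, 555 and 614 CPM in NR GR-Con, against 416, 471, 410 and 481 CPM in DR GR-Con, a difference of 0.43 ± 0.158, whereas in GR-KO the difference was 0.16 ± 0.158 and the libraries overlapped. Pde4d, a PDE4 enzyme held at PKA complexes, had a difference of 0.43 ± 0.177 in GR-Con and 0.18 ± 0.177 in GR-KO. Over the other settings run, the GR-Con differences ranged from 0.26 to 0.51 for Pde8b and from 0.24 to 0.57 for Pde4d. In GR-Con, 63.3% of genes over 100 kb and 46.7% of all genes were positive, and in GR-KO 56.8% and 49.8%. The part of gene length in these values was not tested. Whether these differences depend on genotype was not tested at P21. Pde1c, Pde3b, Pde4b, Pde7a and Pde8a overlapped between NR and DR in both genotypes, with log2 fold changes from -0.16 (Pde8a in GR-KO) to 0.25 (Pde1c in GR-KO). Of all genes tested, 5.25% in GR-KO and 9.45% in GR-Con had every NR library above every DR library, as did 3 and 5 of the 10. Over all genes, 0.14% were called in GR-KO and 1.25% in GR-Con for NR over DR at P21. Nothing is read from the place of the 10 genes among them, since these values bore on their choice.

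NR and DR libraries of this age differed in depth, 17240294 to 28137389 counts in NR and 38176971 to 49221787 counts in DR, and depth and rearing cannot be told apart there. The smallest count of the 10 genes in those NR libraries was 261. Neuron markers summed to 3020 ± 703 CPM in NR GR-KO and 3140 ± 433 CPM in DR GR-KO, and to 3850 ± 64.9 CPM in NR GR-Con and 3710 ± 185 CPM in DR GR-Con (SD, n = 3 in NR and 4 in DR). Astrocyte markers were higher in NR, at 15500 ± 1740 CPM in NR GR-KO and 14300 ± 1250 CPM in DR GR-KO, with overlap, and at 16800 ± 584 CPM in NR GR-Con and 14200 ± 612 CPM in DR GR-Con, without overlap. Oligodendrocyte markers were lower in NR, at 851 ± 166 CPM in NR GR-KO and 1080 ± 206 CPM in DR GR-KO, and at 1140 ± 114 CPM in NR GR-Con and 1270 ± 121 CPM in DR GR-Con. The part of the astrocyte markers in the PDE values was not tested. With the neuron and oligodendrocyte marker scores as covariates or with any 1 library left out, the differences of Pde10a, Pde3a and Pde7b moved by less than their within-group SD. Without the libraries set apart, the GR-Con differences were 2.55 for Pde10a, 1.18 for Pde7b and 1.11 for Pde3a.

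**Figure D2:**
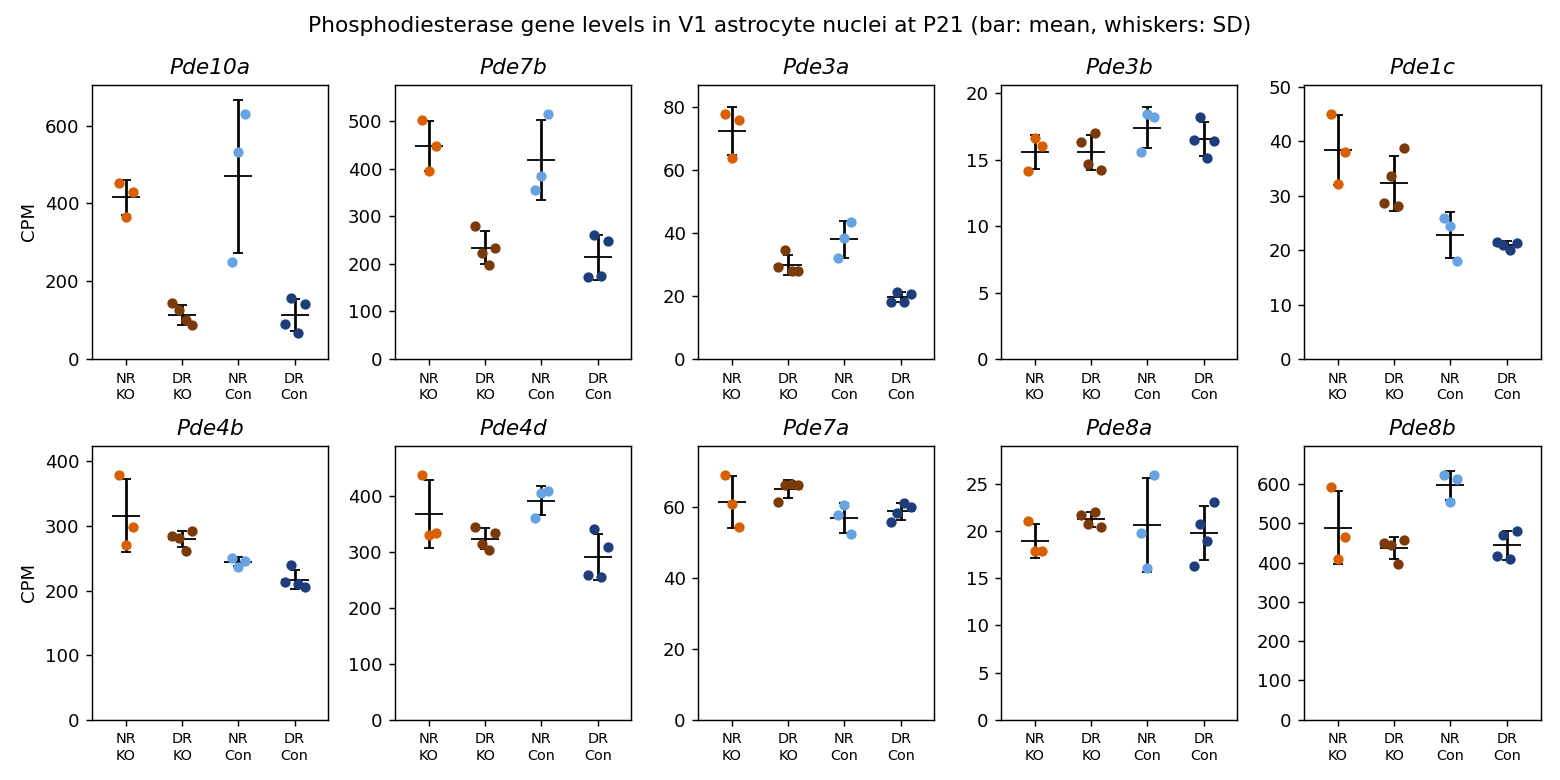
Each panel plots 1 PDE gene at P21 in CPM, with a point per library, a bar at the group mean and whiskers of 1 SD, for NR and DR libraries of GR-KO (left) and GR-Con (right). Pde10a, Pde7b and Pde3a have every NR library above every DR library in both genotypes, and the lowest NR library of Pde10a is at 249 CPM.

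The P14 and P28 libraries took no part in the rearing values at P21, and rearing was tested there. Results of these libraries were also known when the genes were chosen, so those tests are not fully independent of the choice. At P28, 3 of the 10 genes (Pde10a, Pde3a and Pde7b) rose with normal rearing in GR-KO, and 0 of 10 passed in GR-Con. At P14 none passed in either genotype. The comparison asks what visual experience does to V1 astrocytes. The share of all genes called (adjusted p below 0.05, edgeR quasi-likelihood test with Benjamini-Hochberg adjustment) was 0.649% in GR-KO and 0.421% in GR-Con at P28. Of genes over 100 kb, 0.82% in GR-KO and 0.205% in GR-Con were called.

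In GR-KO at P28, Pde10a had 856, 839 and 644 CPM in NR libraries, against 330, 491, 108 and 89.1 CPM in DR libraries. All 3 NR values exceeded all 4 DR values, and the DR libraries themselves formed a higher and a lower pair. The difference was 1.62 ± 0.388 (3.07-fold; edgeR adjusted p = 0.0388). Pde3a had 82.6, 83.8 and 50.5 CPM in NR, against 48.2, 47.4, 27.4 and 26 CPM in DR, a difference of 0.96 ± 0.19 (edgeR adjusted p = 0.00738). Pde7b had 523, 563 and 498 CPM in NR, against 354, 419, 209 and 197 CPM in DR, a difference of 0.84 ± 0.207 (edgeR adjusted p = 0.0431). The same DR pair, replicates 3 and 4, was low for each of these genes. That pair also had the lowest astrocyte marker sums of its group (11610 and 12380 CPM, with 15520 and 13230 CPM in replicates 1 and 2) and the highest sums of neuron markers (3745 and 3607 CPM, with 2651 and 3383 CPM) and oligodendrocyte markers (1236 and 1150 CPM, with 625.8 and 1010 CPM). All 10 genes had positive values in this comparison, with a median of 0.37 against -0.004 over all genes, and 49.2% of all genes and 77.3% of genes over 100 kb were positive. Without overlap were 4 of the 10, against 3.7% of all genes with every NR library higher. Among the uncalled ones, Pde8a, the cAMP-specific relative of Pde8b, had 31.4, 32.9 and 31.7 CPM in NR, against 25, 28.8, 21.5 and 21 CPM in DR, without overlap, but its difference of 0.41 ± 0.157 did not pass (edgeR adjusted p = 0.28).

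These P28 calls rested on few libraries and on the pooled estimate of the spread. Leaving out DR GR-KO replicate 4, NR GR-KO replicate 1 or NR GR-KO replicate 2 left 0 of the 3 calls, and leaving out DR GR-KO replicate 3 left only Pde3a, with the 3 differences between 0.69 and 1.56 in those fits. A fit of only the groups compared kept the sizes (1.61, 0.95 and 0.83) but called 0 of 10 members and 1 gene in all. Genes over 100 kb, 2438 in number, had a median of 0.13 in this comparison. With each library's slope of expression on gene length as a covariate, the 3 genes were still called, at 1.42 for Pde10a, 0.78 for Pde3a and 0.71 for Pde7b (edgeR adjusted p = 0.0337, 0.00472 and 0.0382). With the neuron and oligodendrocyte scores as covariates the 3 were also called, at 1.61 for Pde10a, 0.89 for Pde3a and 0.82 for Pde7b (edgeR adjusted p = 0.014, 0.000998 and 0.0119). Over the genotype's NR libraries astrocyte markers summed to 13030 to 16220 CPM and neuron markers to 2912 to 3619 CPM, and the part of the astrocyte markers was not tested.

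In GR-Con at P28, Pde10a had 301, 613 and 303 CPM in NR libraries, against 199, 318, 296 and 111 CPM in DR libraries, and the groups overlapped (0.81 ± 0.386, edgeR adjusted p = 0.437). Pde3a had 30.2, 52.1 and 30.2 CPM in NR, against 28.6, 29.7, 28.4 and 22.7 CPM in DR, a narrow separation (1 of the 10 genes, against 4.67% of all genes with every NR library higher) with a difference of 0.46 ± 0.193 (edgeR adjusted p = 0.37). One NR library, replicate 2, was high for both. Pde7b differed by 0.16 ± 0.208 and Pde8b by -0.33 ± 0.159, and neither passed. Of the 10 genes, 3 had an unadjusted p below 0.05 in edgeR (Pde10a, Pde3a and Pde8b), 1879 of all genes did, and DESeq2 called 0 of the 10. Whether the rearing difference depended on genotype at P28 was tested directly. The light-by-GR interaction called none of the 10 genes and 0.00585% of all genes (1 gene), with 1424 genes at an unadjusted p below 0.05 in edgeR, Pde7b and Pde8b among them, and 0 of the 10 called by DESeq2. All 10 interaction estimates were positive, as were 49.8% of all genes and 81.7% of genes over 100 kb, with a median of 0.44, led by Pde10a (0.80 ± 0.551), Pde7b (0.69 ± 0.295) and Pde8b (0.57 ± 0.224), whose edgeR adjusted p values were 0.68, 0.572 and 0.572. Genes over 100 kb had a median of 0.23 in the same interaction.

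At P14 none of the 10 genes passed with rearing. Pde10a had 120, 149 and 142 CPM in NR GR-KO libraries, against 82, 94.1 and 120 CPM in DR GR-KO, and 118, 117 and 163 CPM in NR GR-Con, against 114, 102 and 89 CPM in DR GR-Con. Its differences of 0.47 ± 0.42 and 0.38 ± 0.419 did not pass (edgeR adjusted p = 1 for both). The other 9 genes lay between -0.17 and 0.24. Over all genes 0% were called in GR-KO and 0% in GR-Con at this age, where edgeR gave 288 and 471 genes with an unadjusted p below 0.05, none of them among the 10, and DESeq2 called 0 and 2 genes. The light-by-GR interaction at P14 likewise called 0% of genes (434 at an unadjusted p below 0.05, 0 by DESeq2).

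**Figure D3:**
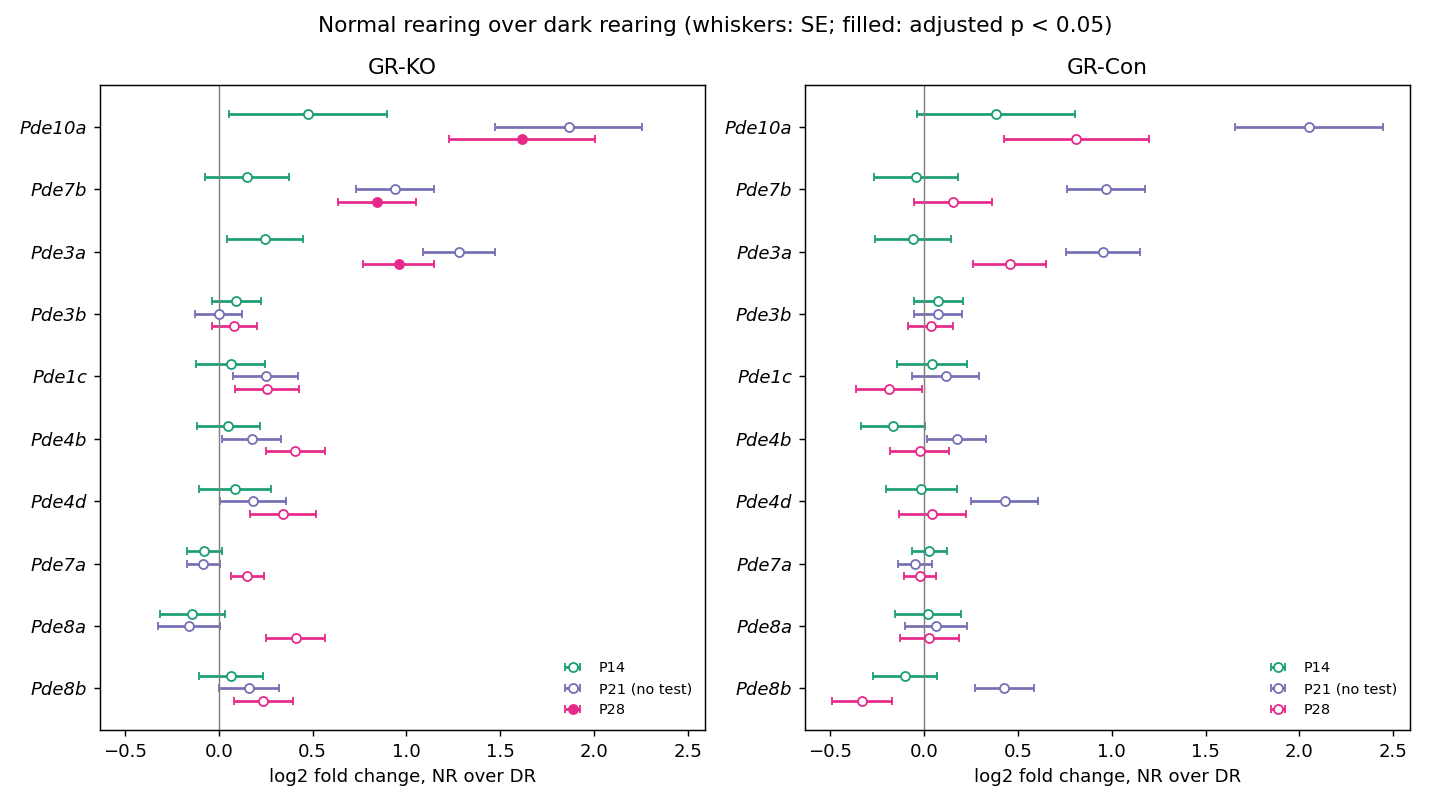
Points are the log2 fold changes of NR over DR for each PDE gene in GR-KO (left) and GR-Con (right) at P14, P21 and P28, with whiskers of 1 SE, filled where the edgeR adjusted p was below 0.05, and P21 left unfilled because it was not tested. Pde10a, Pde7b and Pde3a lie apart from the other 7 genes at P21, and their P28 points are filled in GR-KO only, at 1.62, 0.84 and 0.96.

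Pde3a and Pde1c rose in GR-KO over GR-Con both at P21 over both rearings and at P28 in NR. At P21, with the rearing-specific differences weighted by their 3 NR and 4 DR libraries, which keeps rearing out of the contrast, Pde3a rose by 0.74 ± 0.137 (1.68-fold; edgeR adjusted p = 0.000132), Pde1c by 0.68 ± 0.124 (1.6-fold; adjusted p = 0.000108) and Pde4b by 0.37 ± 0.111 (1.29-fold; adjusted p = 0.0182). These were 3 of 10 called (adjusted p below 0.05 and an absolute log2 fold change above 0.1), against 16.5% of all genes and 28.7% of genes over 100 kb. The other 7 lay between -0.14 (Pde8b) and 0.13 (Pde7a), and Pde10a at -0.07 ± 0.273. Vascular markers were not lower in GR-KO, at 140 ± 19.7 CPM in GR-KO and 128 ± 8.92 CPM in GR-Con in NR. In DR they had 141 ± 14.9 CPM in GR-KO and 135 ± 7.19 CPM in GR-Con. Neuron and oligodendrocyte markers were lower in GR-KO. Neuron markers summed to 3020 ± 703 CPM in GR-KO and 3850 ± 64.9 CPM in GR-Con in NR, and to 3140 ± 433 CPM in GR-KO and 3710 ± 185 CPM in GR-Con in DR. Oligodendrocyte markers summed to 851 ± 166 CPM in GR-KO and 1140 ± 114 CPM in GR-Con in NR, and to 1080 ± 206 CPM in GR-KO and 1270 ± 121 CPM in GR-Con in DR. With the neuron and oligodendrocyte scores as covariates Pde3a had 0.53 and Pde1c 0.38, and both were still called (edgeR adjusted p = 0.00293 and 0.000427).

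Pde1c, the calcium- and calmodulin-activated enzyme, had 45, 32.1 and 38.1 CPM in NR GR-KO libraries at P21, against 26, 24.5 and 18 CPM in NR GR-Con. In DR it had 28.6, 33.7, 28.1 and 38.8 CPM in GR-KO, against 21.5, 21, 20.1 and 21.4 CPM in GR-Con. The genotypes did not overlap in either rearing. Pde4b, a PDE4 enzyme induced by cAMP in many cells, had 379, 271 and 298 CPM in NR GR-KO, against 251, 237 and 246 CPM in NR GR-Con. In DR it had 284, 281, 262 and 293 CPM in GR-KO, against 213, 239, 211 and 205 CPM in GR-Con, again without overlap. Of all genes, 13% in NR and 9.3% in DR had every GR-KO library above every GR-Con library, as did 3 and 4 of the 10. Fitted within a rearing, which shares libraries with the rearing values above and is therefore given without a test, Pde3a differed by 0.93 ± 0.21 in NR and 0.61 ± 0.182 in DR, Pde1c by 0.76 ± 0.192 and 0.62 ± 0.161, and Pde4b by 0.37 ± 0.169 and 0.37 ± 0.146, where 7.23% and 6.68% of all genes were called. With the neuron and oligodendrocyte scores as covariates the NR values were 0.65 for Pde3a, 0.38 for Pde1c and 0.09 for Pde4b. Over both rearings, the Pde3a and Pde1c calls held in each of the 9 other settings and with each of the 14 libraries left out. Pde4b was not called without NR GR-KO replicate 1 (0.30, edgeR adjusted p = 0.0762) or with the neuron and oligodendrocyte scores as covariates (0.16, adjusted p = 0.306).

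At P28 in NR, 3 of 10 genes rose in GR-KO, where 4.94% of all genes and 14.6% of genes over 100 kb were called. Pde3a rose by 0.95 ± 0.206 (edgeR adjusted p = 0.00378), Pde7b by 0.76 ± 0.224 (adjusted p = 0.0399) and Pde1c by 0.70 ± 0.187 (adjusted p = 0.0226). Pde1c had 37, 37.8 and 26.2 CPM in NR GR-KO, against 16.9, 23.5 and 22 CPM in NR GR-Con. With every GR-KO library above every GR-Con library were 4 of the 10, against 9.01% of all genes. Pde10a, 1 of these 4, differed by 0.94 ± 0.419 and did not pass (edgeR adjusted p = 0.223). All 10 values were positive, as were 47% of all genes and 84.2% of genes over 100 kb, with a median of 0.43, and the 2438 genes over 100 kb had a median of 0.23 here, against -0.02 over all genes. With the length slope as a covariate 0 of 10 were called, at 0.59 for Pde3a, 0.47 for Pde7b and 0.32 for Pde1c (edgeR adjusted p = 0.0506, 0.231 and 0.234). A fit of only the groups compared also called 0 of 10, as did the fit without NR GR-Con replicate 1, and those without NR GR-KO replicate 1 or NR GR-KO replicate 2 called 1 each. Pde7b was also not called without NR GR-Con replicate 3 (0.68, edgeR adjusted p = 0.164).

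At P28 in DR none of the 10 passed, against 2.84% of all genes: Pde3a differed by 0.45 ± 0.179 (edgeR adjusted p = 0.289) and Pde10a by 0.14 ± 0.36. Of all genes 1787 had an unadjusted p below 0.05 in edgeR there, Pde3a alone among the 10, and DESeq2 called 0 of the 10. At P14 none passed in NR (1.11% of all genes) or in DR (0.275%). Pde3a at P14 had 94.2, 100 and 76.9 CPM in NR GR-KO, against 65.1, 53.6 and 65.2 CPM in NR GR-Con, without overlap (2 of the 10 genes, against 8.12% of all genes with every GR-KO library higher), and its difference of 0.56 ± 0.204 did not pass (edgeR adjusted p = 0.275). In edgeR, 1490 genes in NR and 791 in DR had an unadjusted p below 0.05 at P14, with Pde3a in NR the only one of the 10, and DESeq2 called 0 of the 10 in both. Pde3a was thus higher in GR-KO in each of the 6 pairs of groups, passing the test at P21 over both rearings and at P28 in NR.

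Between P14 and P21, Pde3a fell and Pde8b rose in both genotypes. Over both rearings, Pde3a fell by 0.91 ± 0.14 on the log2 scale in GR-KO (edgeR adjusted p = 6.6e-06) and fell by 1.27 ± 0.142 on the log2 scale in GR-Con (adjusted p = 1.7e-08). In GR-Con DR libraries it had 18.2, 21.3, 18.2 and 20.8 CPM at P21, against 62.7, 63.6 and 65.3 CPM at P14. Pde8b rose by 0.72 ± 0.118 in GR-KO (edgeR adjusted p = 1.83e-05) and by 0.66 ± 0.117 in GR-Con (adjusted p = 4.56e-05). In GR-Con DR libraries Pde8b had 416, 471, 410 and 481 CPM at P21, against 397, 310 and 278 CPM at P14. Pde8b, the highest of the 10 per length, and Pde3a thus moved in opposite directions over the same interval. Within rearings, Pde3a changed by -0.32 ± 0.204 in NR GR-KO, -1.35 ± 0.191 in DR GR-KO, -0.69 ± 0.209 in NR GR-Con and -1.70 ± 0.193 in DR GR-Con, given without a test. Its fall was thus larger in DR. Pde8b changed by 0.77 ± 0.171 in NR GR-KO and 0.68 ± 0.161 in DR GR-KO, also without a test. In GR-Con the changes of Pde8b were 0.97 ± 0.171 in NR and 0.44 ± 0.16 in DR. The P21 values of Pde3a and Pde8b bore on their choice, so their pooled tests are not independent of that choice.

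Pde10a passed the same pooled test, at 0.81 ± 0.291 in GR-KO (edgeR adjusted p = 0.0378) and 0.87 ± 0.291 in GR-Con (adjusted p = 0.0239), but its P21 NR values, which bore on its choice, hold nearly all of the difference, so it is no independent result. Within rearings, without a test, the changes were 1.60 ± 0.427 in NR GR-KO, 0.21 ± 0.393 in DR GR-KO, 1.82 ± 0.43 in NR GR-Con and 0.16 ± 0.392 in DR GR-Con. Group means were 416 CPM at P21 and 137 CPM at P14 in NR GR-KO, 114 and 98.8 CPM in DR GR-KO, 470 and 133 CPM in NR GR-Con, and 114 and 102 CPM in DR GR-Con. The Pde10a call was lost without any 1 of 8 libraries in GR-KO (edgeR adjusted p = 0.0515 to 0.103) and without any 1 of 4 in GR-Con (0.0512 to 0.0645). In GR-KO these were P14 DR replicates 1 and 2, P14 NR replicates 1 and 3, P21 DR replicates 1 and 2 and P21 NR replicates 1 and 3. In GR-Con they were P14 DR replicate 3, P21 DR replicates 2 and 4 and P21 NR replicate 3. Pde1c fell by 0.44 ± 0.129 on the log2 scale in GR-Con (adjusted p = 0.00938) and had -0.06 ± 0.127 in GR-KO, and the difference between the genotypes in this change did not pass (0.38 ± 0.181, edgeR adjusted p = 0.429). In all, 3 of 10 genes were called in GR-KO and 4 of 10 in GR-Con (adjusted p below 0.05 and an absolute log2 fold change above 0.3), against 17.7% and 17.9% of all genes. Of genes over 100 kb, 22.1% in GR-KO and 24.3% in GR-Con were called. The age-by-GR interaction called none of the 10 and 0.854% of all genes (146 genes), with 1937 genes at an unadjusted p below 0.05 in edgeR, Pde1c and Pde7a among them, and 0 of the 10 by DESeq2.

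Oligodendrocyte markers summed to group means of 851 to 1270 CPM at P21, against 291 to 378 CPM at P14. With the neuron and oligodendrocyte scores as covariates, which are themselves tied to age, Pde8b alone was called in GR-Con (0.80) and 0 of 10 in GR-KO for P21 over P14. Pde3a then had -0.29 in GR-KO and -0.58 in GR-Con (edgeR adjusted p = 0.685 and 0.262). The part of these cells in the age values was not tested otherwise.

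Between P21 and P28, Pde3b rose in both genotypes, by 0.60 ± 0.0862 in GR-KO (edgeR adjusted p = 3.87e-05) and by 0.41 ± 0.0863 in GR-Con (adjusted p = 0.0026). Pde3b, the insulin-responsive PDE3, had 25.2, 25.9 and 22.1 CPM in NR GR-KO at P28, against 14.1, 16.6 and 16 CPM at P21. In NR GR-Con it had 23.6, 24.5 and 20.5 CPM at P28, against 15.6, 18.4 and 18.2 CPM at P21. The Pde3b call held in both genotypes in every setting run and with each library left out. Pde10a rose by 1.05 ± 0.275 (edgeR adjusted p = 0.0115) and Pde8a by 0.43 ± 0.112 (adjusted p = 0.0114) in GR-KO, and Pde4b by 0.44 ± 0.111 (adjusted p = 0.01) in GR-Con. Without P28 DR GR-KO replicate 2, Pde10a was no longer called (0.74, edgeR adjusted p = 0.0736), and Pde4b in GR-Con was not with the cell scores as covariates (0.22, edgeR adjusted p = 0.0861). These were 3 of 10 in GR-KO and 2 of 10 in GR-Con, against 6.76% and 6.4% of all genes and 15.7% and 8.98% of genes over 100 kb. None of the 10 was called lower. The P21 libraries entered these tests and their values bore on the choice of the genes, so the tests are not independent of it.

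**Figure D4:**
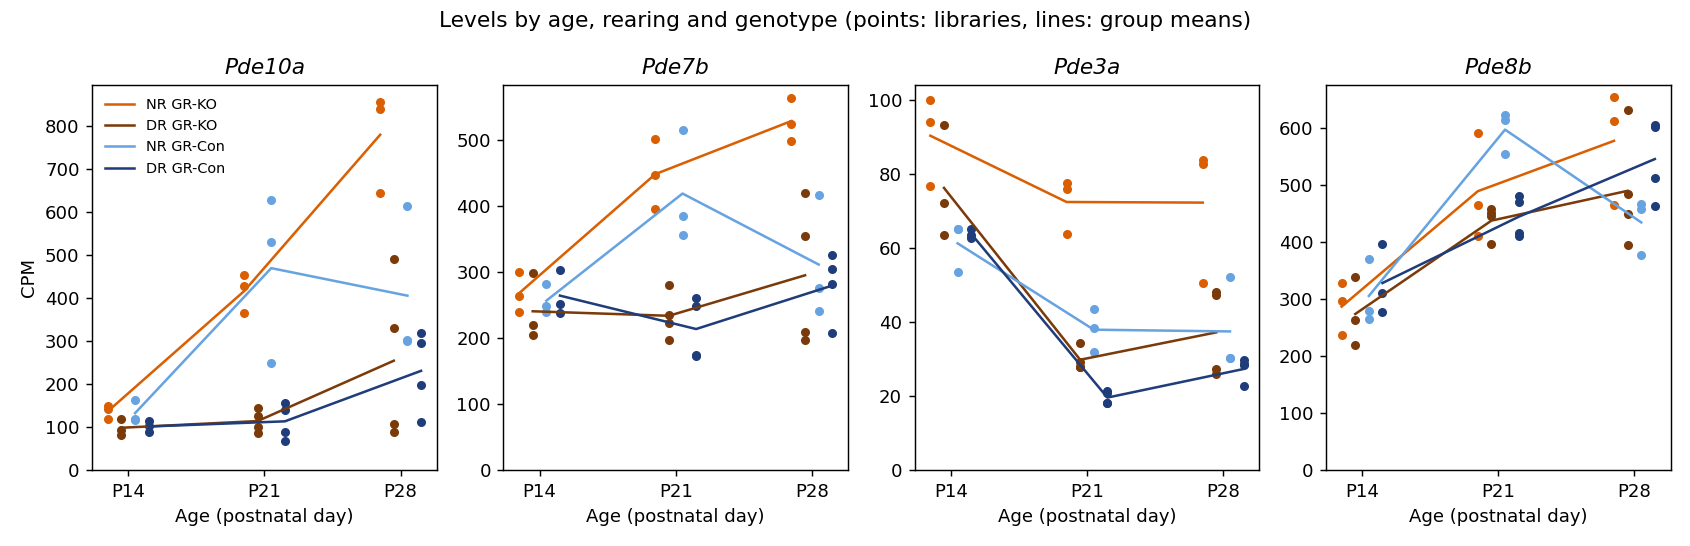
CPM of Pde10a, Pde7b, Pde3a and Pde8b at P14, P21 and P28, with a point per library and lines through the group means, coloured by rearing and genotype. Mean Pde10a in NR GR-KO reaches 780 CPM at P28, whereas DR groups stay at 98.8 to 254 CPM over the 3 ages, and Pde3a is highest at P14 in every group.

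**Figure D5:**
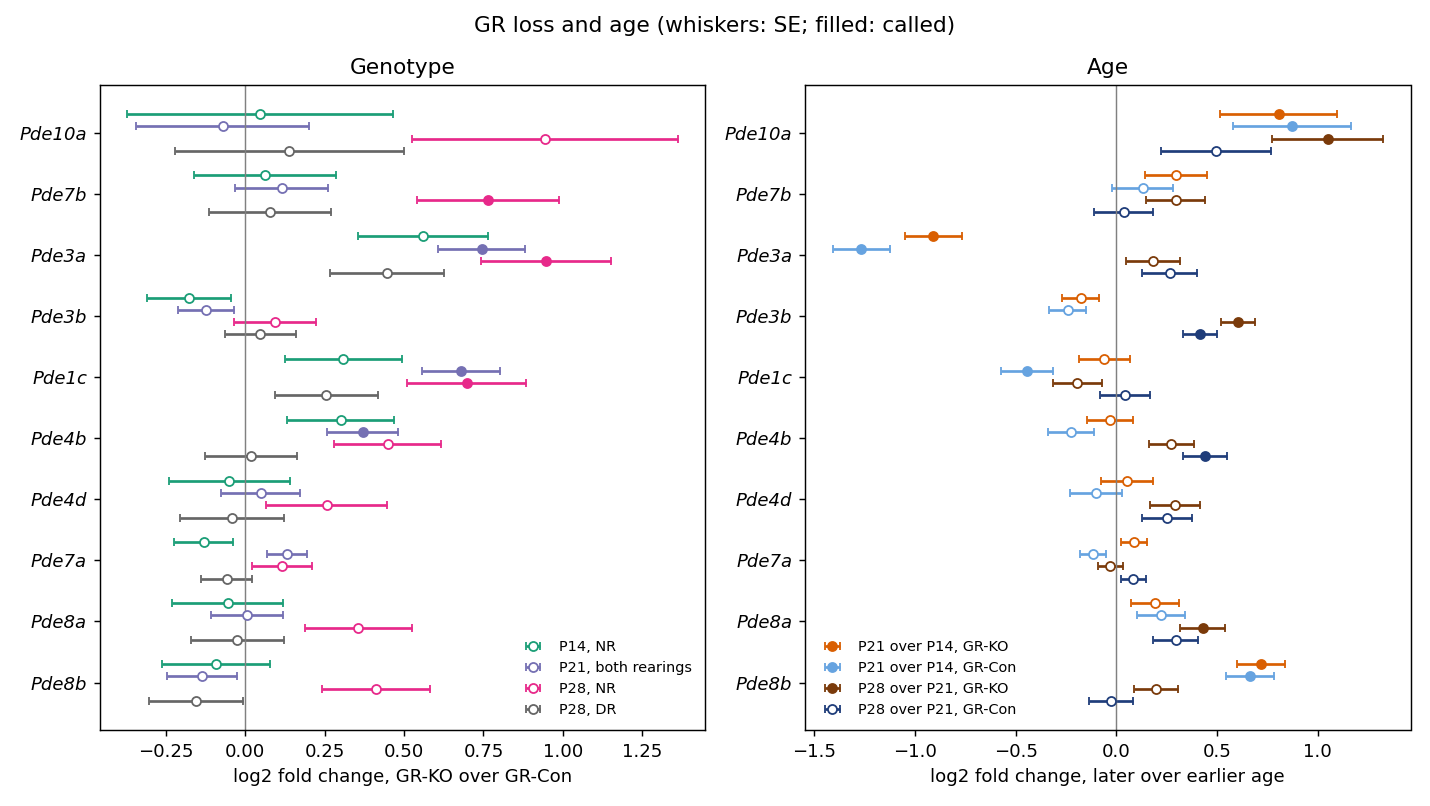
Log2 fold changes with whiskers of 1 SE for each PDE gene, for GR-KO over GR-Con (left, by age and rearing) and for the later over the earlier age (right, by genotype over both rearings), filled where called. Pde3a and Pde1c are filled at P21 and at P28 in NR on the left, and Pde3a stands at -0.91 and -1.27 for P21 over P14 on the right.

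Genes with the most similar profile were sought next. Over the 12 group means of log2 CPM, among 11353 genes of at least 5 CPM, the profile of Pde10a was most like those of Stk40 (r = 0.964), Map3k19 (0.961) and E030011O05Rik (0.955). Pde7b was most like Ankrd17 (r = 0.943), Atg5 (0.936) and Pde10a itself (0.93). Pde3a was most like Sipa1l2 (r = 0.954), Cdyl2 (0.945) and Ralb (0.942), and Pde8b most like Hivep3 (r = 0.99), 2210408F21Rik (0.978) and Ranbp3l (0.978). These correlations describe 12 points that share the same libraries, 4 of them the P21 groups whose values bore on the choice of the genes. Among the 10 genes themselves, Pde10a and Pde4d (r = 0.86), Pde7b and Pde4d (0.84) and Pde3a and Pde1c (0.79) ran together, and Pde3a and Pde8b ran opposite (r = -0.52). Over the 8 groups at P14 and P28 alone, r was 0.91 for Pde10a and Pde7b, 0.94 for Pde10a and Pde4d, 0.95 for Pde7b and Pde4d, 0.88 for Pde3a and Pde1c and -0.66 for Pde3a and Pde8b. Other pairs reached similar values there, such as Pde8a and Pde8b (0.93), Pde10a and Pde8a (0.92) and Pde3b and Pde8b (0.91). How common such values are among all pairs of genes was not tested.

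The other genes of cyclic nucleotide signalling were counted by list. Of the 14 other PDE genes, 0 were called for NR over DR at P28 in GR-KO or GR-Con, and so were 0 of 10 adenylyl cyclases, 0 of 8 guanylyl cyclases, 0 of 15 tested effectors, 0 of 12 PKA anchoring and scaffold genes and 0 of 12 tested receptors and G proteins, in the edgeR test that called 0.649% and 0.421% of all genes. Of these 71 genes together, 8 in GR-KO and 9 in GR-Con had an unadjusted p below 0.05 in edgeR, against 11.6% and 11% of all genes. DESeq2 called 0 of the 71 in GR-KO and 1 in GR-Con, Adcy2. Of 14 CREB factors and targets, 6 rose in each genotype. The lists were chosen with earlier results of these data known, so their counts are a description and no list was tested against another. Nr4a1, an early-response nuclear receptor gene, rose by 1.72 ± 0.327 in GR-KO (edgeR adjusted p = 0.00508) and 1.88 ± 0.328 in GR-Con (adjusted p = 0.00221). Nr4a3, its relative, rose by 1.88 ± 0.398 in GR-KO and 2.29 ± 0.401 in GR-Con, and Fos, a subunit of AP-1, by 1.93 ± 0.405 and 2.21 ± 0.406. Sik1, a kinase gene that is a CREB target, rose by 2.17 ± 0.386 in GR-KO, and Nr4a2 by 1.61 ± 0.344 in GR-Con.

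For GR-KO over GR-Con, the genes called included adenylyl cyclases and receptors that raise cAMP. At P21 over both rearings, where 16.5% of all genes were called, the counts below describe the genes named, and no list was tested against that share. Of 10 adenylyl cyclases, 2 rose: Adcy8, a calcium-stimulated cyclase, by 0.89 ± 0.0815 (edgeR adjusted p = 2.38e-10) and Adcy2 by 0.71 ± 0.095 (adjusted p = 7.18e-07). Mean Adcy8 was 107 CPM in NR GR-KO and 60.5 CPM in NR GR-Con, and 127 CPM in DR GR-KO and 65.8 CPM in DR GR-Con. Of 12 receptors and G proteins tested, 3 rose: Vipr2 and Adcyap1r1, receptors for the VIP and PACAP peptides, by 1.07 ± 0.15 and 0.33 ± 0.0597, and the prostaglandin receptor Ptger4 by 0.53 ± 0.176. Of 8 guanylyl cyclases, Gucy2f (1.42 ± 0.179) and Gucy2e (0.53 ± 0.131) rose. The channel gene Hcn3 rose by 0.34 ± 0.11 as 1 of 15 effectors. Pde2a, a cGMP-stimulated PDE, fell by 0.30 ± 0.0935 on the log2 scale, the scaffold genes Akap12 and Pde4dip fell by 0.39 ± 0.124 and 0.21 ± 0.074, and Per1, a GR and CREB target, fell by 0.77 ± 0.11. All of these passed with an edgeR adjusted p of at most 0.0435.

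At P28, Adcy8 rose in GR-KO in both rearings (0.90 ± 0.124 in NR and 0.44 ± 0.107 in DR, edgeR adjusted p = 9.82e-06 and 0.0109), as did Vipr2 (0.92 ± 0.228 and 0.87 ± 0.194). Adcy2 (0.94 ± 0.146), Ptger4 (0.87 ± 0.262) and Pde11a, which cuts both messengers and had 3.19 to 8.28 CPM over the libraries (0.82 ± 0.234, edgeR adjusted p = 0.0326), rose in NR, and Per1 fell by 0.66 ± 0.144 in DR. At P14, Per1 fell by 0.68 ± 0.169 in NR and no other gene of these lists passed.

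From P14 to P21, Pde9a, the cGMP enzyme, fell by 0.50 ± 0.0778 on the log2 scale in GR-KO and by 0.74 ± 0.0779 in GR-Con (edgeR adjusted p = 6.68e-06 and 4.86e-09). It was the only one of the 14 other PDE genes called in GR-Con, and in GR-KO Pde6b rose by 0.84 ± 0.254 at 0.394 to 2.07 CPM. Of the 15 effectors tested, 2 rose and 4 fell in each genotype, where 17.7% of all genes in GR-KO and 17.9% in GR-Con were called in either direction. Rapgef4, a cAMP-activated exchange factor, rose by 0.39 ± 0.0744 in GR-KO and 0.43 ± 0.0744 in GR-Con, Prkar2b, a regulatory subunit of PKA, fell by 0.84 ± 0.116 and 0.63 ± 0.116, and the channel gene Hcn4 fell by 1.22 ± 0.2 and 1.07 ± 0.198. Of the 12 receptors and G proteins, 1 rose and 3 fell in GR-KO and 2 rose and 3 fell in GR-Con. The VIP receptor gene Vipr1 rose by 0.63 ± 0.115 in GR-KO and 0.75 ± 0.115 in GR-Con, and Ptger4 fell by 0.81 ± 0.175 and 1.01 ± 0.18. Of 10 adenylyl cyclases, 3 rose and 1 fell in GR-KO and 1 rose and 1 fell in GR-Con. Of 8 guanylyl cyclases, 1 rose and 1 fell in each genotype. Of 12 PKA anchoring and scaffold genes, 1 fell in each genotype. Of 14 CREB factors and targets, 2 rose in GR-KO and 4 in GR-Con. From P21 to P28, Pde1a rose by 0.39 ± 0.0998 in GR-KO (edgeR adjusted p = 0.0101), the only other PDE gene called at that step in either genotype. In GR-KO, 2 effectors, 1 receptor or G protein gene and 3 CREB genes also rose. There 1 adenylyl cyclase, 2 guanylyl cyclases, 1 effector and 1 receptor or G protein gene fell. In GR-Con, 1 effector and 1 CREB gene rose, and 1 effector, 1 scaffold gene and 1 receptor or G protein gene fell. Over all genes, 6.76% in GR-KO and 6.4% in GR-Con were called at that step.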

How the data were processed

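Nuclei of V1 astrocytes were sorted as GFP-positive, DRAQ5-positive events and their total RNA was sequenced with a strand-preserving kit in paired-end mode. The deposited file holds raw counts per gene: the authors aligned reads to mm10 with STAR and counted them over whole gene bodies, introns included, with featureCounts, and used DESeq2. Introns make long genes count high, so levels between genes were compared per kb only. Members and gene lists were chosen with earlier results of these data known, and the P21 rearing contrasts, which bore on the choice, were not tested for members.

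All 40 libraries (17240294 to 49221787 counts) entered a single edgeR 4.0.16 quasi-likelihood fit in R 4.3.3 with 12 group means, TMM scaling and edgeR's default filter on low counts (17106 genes, biological coefficient of variation 0.132), two-sided, with Benjamini-Hochberg adjustment over all genes tested. Calls needed an adjusted p below 0.05, and an absolute log2 fold change above 0.1 for GR or 0.3 for age, as in the study. Named were all members, other PDE genes of at least 1 CPM and the nearest profiles of the 4 members with the widest range. Of the called genes of each list at most 4 a comparison were named, and some called with age are given as counts only. The cell scores are the log2 of each library's summed marker CPM, and the length slope is each library's slope, over genes, of its deviation from the gene's mean log2 CPM on the logarithm of gene length; both were standardised. The fit was tested on simulated data with known changes. Alternatives were DESeq2 1.42.0, its size factors in edgeR, no filter, only the groups compared, a replicate block, the 20 most abundant genes left out, 3 libraries left out together, cell scores, the length slope and each library left out in turn. Same-numbered libraries of an age did not deviate together on average (mean r = 0.0218 over 56 pairs), so they were not treated as pairs. Single pairs ran from r = -0.185 to 0.303, with 12 above 0.1, so a shared batch in some of them remains possible.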

Additional observations from a re-analysis of the deposited data

Results flagged for a closer look

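In the 4 groups of 4 libraries, each of the 10 genes was screened for a library far from the rest of its group (40 screens, of which chance sets apart about 1 in 20). Pde3b had 29.4 CPM in P28 DR GR-Con replicate 2, whereas the other libraries of that group had 19.4 to 20.9 CPM. Pde7a had 61.4 CPM in P21 DR GR-KO replicate 1, whereas the others had 66.3 to 66.4 CPM, a small distance in an unusually tight group.

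Among the lists of cyclic nucleotide signalling, the change from P14 to P21 differed between the genotypes for 2 genes, by the edgeR interaction test over all genes. For Adcy8 the change was 0.74 ± 0.12 higher in GR-KO than in GR-Con (adjusted p = 0.000664), where Adcy8 fell by 0.48 ± 0.0845 on the log2 scale in GR-Con. For Gucy2f it was 1.28 ± 0.253 higher in GR-KO than in GR-Con (adjusted p = 0.00541), and Gucy2f fell by 1.49 ± 0.183 on the log2 scale in GR-Con.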

How the results depend on the processing

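Scaling by DESeq2 size factors changed no call among the 10 genes. The numbers of members called that moved were as follows. Fitting only the groups compared gave 0 against 3 for NR over DR at P28 in GR-KO and 0 against 3 for GR-KO over GR-Con at P28 in NR, and leaving out 1 library gave 0 to 4 for each. The length slope gave 2 against 0 for GR at P14 in NR (Pde3a 0.59 and Pde4b 0.33, edgeR adjusted p = 0.0326 and 0.0213) and 0 against 3 at P28 in NR. The cell scores gave 5 against 3 for GR at P28 in NR, 1 against 0 at P28 in DR (Pde1c 0.36), 1 against 4 for P21 over P14 in GR-Con, 0 against 3 in GR-KO and 1 against 2 for P28 over P21 in GR-Con. With the cell scores or the length slope, Pde8b was called lower in GR-KO at P21 (-0.38 and -0.26). The cause of these moves was not tested, though the cell scores themselves differ by age.

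Of the signs that turned, Pde1c for P21 over P14 in GR-Con (0.36 with the cell scores) belonged to a called value, and Pde1c for P28 over P21 in GR-Con had an adjusted p of 0.0335 in edgeR with them (-0.25). Turns smaller than 1 SE in uncalled values were counted as unchanged. With the cell scores, P21 over P14 turned for Pde3b (0.0715), Pde4b (0.51), Pde4d (0.56) and Pde7a (0.22) in GR-Con and Pde3b (0.21), Pde1c (0.62) and Pde4b (0.64) in GR-KO. P28 over P21 in GR-Con turned for Pde7a (-0.017) and Pde7b (-0.12), GR at P21 over both rearings for Pde4d (-0.16), Pde7b (-0.064) and Pde8a (-0.14), GR at P21 in NR for Pde7a (-0.016), and age by GR for Pde8b (-0.16). With the length slope, turns were Pde4b for NR over DR at P28 in GR-Con (0.15), Pde4d (-0.16) and Pde7a (-0.0645) for GR at P28 in NR, Pde4d for GR at P21 (-0.089) and light by GR at P28 (-0.092), and Pde4d (-0.047) and Pde8b (-0.13) for age by GR. Leaving out 1 library ranged over 0 for Pde4d (-0.22 to 0.23) and Pde7b (-0.11 to 0.31) for NR over DR at P28 in GR-Con, and for Pde1c for P21 over P14 in GR-KO (-0.15 to 0.099). For GR at P28 in DR the ranges were -0.40 to 0.42 for Pde10a, -0.071 to 0.21 for Pde3b, -0.14 to 0.15 for Pde4b, -0.21 to 0.14 for Pde4d and -0.14 to 0.23 for Pde7b.

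With the replicate number as a block, Pde7b lost its call for NR over DR at P28 in GR-KO (0.74, edgeR adjusted p = 0.0889) and Pde4b gained one for GR at P28 in NR (0.44, adjusted p = 0.0456). No other member call changed with the block, which gives no age value since the numbers are nested in age.

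The numbers of all genes called moved by over 1.5 times. For NR over DR they were 63 to 1255 against 214 at P21 and 1 to 169 against 72 at P28 in GR-Con, and 23 to 177 against 24 at P21 and 1 to 431 against 111 at P28 in GR-KO. For GR they were 137 to 455 against 190 at P14 and 291 to 1523 against 845 at P28 in NR, 1 to 112 against 47 at P14, 860 to 2031 against 1142 at P21 and 303 to 824 against 486 at P28 in DR, and 1823 to 3804 against 2826 at P21 over both rearings. For P21 over P14 they were 739 to 3203 against 3026 in GR-KO and 1022 to 3280 against 3059 in GR-Con, for P28 over P21 in GR-Con 670 to 1468 against 1094, for age by GR 88 to 286 against 146 and for light by GR at P28 0 to 2 against 1.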
